A study of Mus musculus with 15 samples.

Results

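The transcription factor NF-κB and the proteins that hold it in check were followed through 10 genes: the subunit genes Nfkb1, Rela, Nfkb2 and Relb, the inhibitor and feedback genes Nfkbia, Nfkbiz, Bcl3 and Tnfaip3, and the kinase complex genes Ikbkb and Ikbkg. They were chosen by symbol, are 10 of the 561 genes on the panel, and all 10 were among the 269 genes tested, since their mean over the 15 samples was at least 20 counts. The cells were RAW 264.7 macrophages, a single established mouse line, given lipopolysaccharide (LPS, a bacterial Toll-like receptor ligand) together with plasma extracellular vesicles (EVs) for 24 hours. The EVs came from female C57BL/6J mice that were sham treated, or were taken 3 or 7 days after whole-body ionizing radiation (WBIR) of 2 Gy or 9 Gy. Each of the 5 groups (sham EVs, 2 Gy day 3, 2 Gy day 7, 9 Gy day 3 and 9 Gy day 7 EVs) has 3 samples. All groups, the sham EV group included, received LPS, and no group without LPS or without EVs is in this experiment. The question was how EVs from irradiated mice alter the LPS response of macrophages, compared with EVs from sham mice.

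NF-κB is a family of dimeric transcription factors that in resting cells are kept in the cytoplasm by inhibitory proteins. Toll-like receptor 4, which senses LPS, activates the IκB kinase complex, which marks the inhibitor IκBα for destruction and frees dimers such as RelA with the product of Nfkb1 (the canonical pathway). A slower, noncanonical pathway processes the precursor encoded by Nfkb2 and releases dimers with RelB. Several genes that NF-κB switches on encode its own inhibitors or precursors, among them Nfkbia, Tnfaip3 and Nfkb2, so their mRNAs are often read as a record of NF-κB activity in macrophages.

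The nanoString nCounter Mouse Immunology panel was used, in which barcoded probes are hybridized to mRNA and counted singly, with no amplification. Each sample was divided by a factor from the 14 housekeeping genes of the panel (their geometric mean), and the quotients are called normalized counts. They are compared between samples, for 1 gene at a time or for the sum of a marker list. In such a sum the weight of a gene also depends on its probe. The 9 Gy day 3 samples stood apart in depth, with totals of 43176 to 87899 counts, against 453178 to 837995 in the other 12 samples. In that group 9 of the 30 member values were under 20 counts, in Rela, Bcl3, Tnfaip3, Ikbkb and Ikbkg, whereas the lowest member count in any other group was 42. The 9 Gy day 7 samples stood apart in their housekeeping means, 801.4 to 871.9 counts against 454.5 to 545.1 with sham EVs. Their totals were 453178 to 617963, against 568097 to 729491 with sham EVs. Housekeeping scaling therefore lowers the day 7 values more than scaling to total counts does. Replicates 1 and 2 of the group titled 9 Gy day 3 carry a day label of 7, and were placed by title. The labels and the methods also differ in the number of EVs and the lysis reagent, and the methods say that samples were run in triplicate. Neither source says whether the 3 samples of a group came from separate cultures or EV preparations or are repeat runs, so p-values measure only the spread between these samples. Of 8 macrophage markers 7 were on the panel, all with a mean of at least 20 counts. Their summed normalized level was 18860 to 20520 with sham EVs, 8575 to 9566 at 9 Gy day 3 and 7758 to 9148 at 9 Gy day 7, most of it from Cybb, a subunit of the phagocyte oxidase. Csf1r, the receptor of the macrophage growth factor, went the other way, with 22.2 to 43.5 normalized counts with sham EVs, 138 to 204 at 9 Gy day 3 and 102 to 132 at 9 Gy day 7. Tlr4, the LPS receptor, overlapped sham EVs at both days. The part of these shifts in the results at 9 Gy was not tested. Levels relative to the housekeeping genes do not give the number of cells. In these bulk samples fewer cells expressing a marker and less of its RNA per cell cannot be told apart. Of the markers of other cells, 6 of 8 for T cells, 4 of 6 for B cells, all 5 on the panel for NK cells, 4 of 5 for neutrophils and both on the panel for platelets averaged under 20 counts in the sham EV samples. The summed normalized level of the T cell list was 187 to 218 with sham EVs, 93.4 to 146 at 9 Gy day 3 and 104 to 128 at 9 Gy day 7, and that of the neutrophil list 59.9 to 66.6, 40.6 to 44.3 and 30.1 to 35.6, without overlap and not tested further. The NK cell, B cell and platelet sums overlapped sham EVs at 9 Gy day 3 and lay below them at day 7. At 9 Gy day 3 the neutrophil markers had raw counts of 1 to 4. The T cell markers other than Cd8a and Lck had 1 or 2 there. The lowest count in the data is 1, so these day 3 sums are partly set by that floor.

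The promoters of the 4 members called at 9 Gy day 3 are shown, 3 with and 1 without a match to the κB motif that NF-κB dimers bind. RefSeq sequences (GRCm38.p6) of the 250 bases before the transcription start were at hand for 6 members in 12 windows. Each was searched on both strands for the κB consensus motif, which is 10 bases long. Capitals mark the matches, and overlapping matches are drawn as 1 stretch. The sequences run 5′ to 3′ on the gene's strand, namely chr19:46304487-46304736 (plus strand) for Nfkb2, chr12:55492648-55492897 (minus strand) for Nfkbia, chr10:19015411-19015660 (minus strand) for Tnfaip3 and chr19:5637291-5637540 (plus strand) for Rela.
Nfkb2: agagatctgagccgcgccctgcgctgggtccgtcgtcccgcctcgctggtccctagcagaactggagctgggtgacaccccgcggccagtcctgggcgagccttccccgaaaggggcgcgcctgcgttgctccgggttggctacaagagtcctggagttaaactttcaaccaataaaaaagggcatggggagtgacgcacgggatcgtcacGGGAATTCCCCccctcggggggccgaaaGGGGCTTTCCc
Nfkbia: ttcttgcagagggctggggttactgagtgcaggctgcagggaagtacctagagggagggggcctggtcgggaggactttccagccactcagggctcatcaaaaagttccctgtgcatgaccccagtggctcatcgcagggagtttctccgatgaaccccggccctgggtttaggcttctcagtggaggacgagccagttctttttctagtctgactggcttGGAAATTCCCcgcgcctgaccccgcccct
Tnfaip3: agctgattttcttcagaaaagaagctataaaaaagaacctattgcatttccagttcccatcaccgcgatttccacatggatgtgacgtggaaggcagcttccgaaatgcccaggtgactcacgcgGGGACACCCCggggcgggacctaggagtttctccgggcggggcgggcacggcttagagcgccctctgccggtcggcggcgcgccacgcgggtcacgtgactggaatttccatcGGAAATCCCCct
Rela: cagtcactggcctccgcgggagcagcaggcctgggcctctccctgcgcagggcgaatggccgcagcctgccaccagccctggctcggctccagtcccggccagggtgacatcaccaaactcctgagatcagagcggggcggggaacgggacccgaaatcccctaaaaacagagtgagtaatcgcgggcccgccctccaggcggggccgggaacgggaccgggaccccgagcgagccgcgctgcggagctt
The Nfkb2 window held 2 stretches, from 39 to 29 and from 11 to 2 bases before the start. Both other windows listed for Nfkb2 held 1 each. Nfkbia held 1, from 29 to 20 bases before the start. Tnfaip3 held 2, from 125 to 116 and from 12 to 3 bases before the start, and none in its other window. The windows of Rela, Bcl3 and Ikbkg held no match. The motif was held by 7.25% of all 32851 windows, against 5 of the 12 member windows. Those 5 include every window of Nfkb2, so windows are not independent. Counted by gene, 8.23% of 27025 genes held it, against 3 of the 6 members with a window. The members are not a random draw, since known feedback targets of NF-κB are among them. A match describes letters in a window and was not tested as a binding site. Promoters of Nfkb1, Relb, Nfkbiz and Ikbkb were not analysed here.

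Nfkb2, which encodes the precursor of the noncanonical subunit, changed more than any other member under housekeeping scaling. With sham EVs the 3 samples held 3503, 4184 and 3410 normalized counts. The 2 Gy day 3 samples held 3001, 3721 and 3853, and the 2 Gy day 7 samples 3561, 4304 and 4432. With EVs taken after 9 Gy the values were 677, 900 and 673 at day 3, and 708, 879 and 1066 at day 7. All 6 samples at 9 Gy lay below all 9 others, and the 2 Gy samples overlapped the sham EV samples. Relative to sham EVs, Nfkb2 fell, with a log2 fold change of -2.30 at 9 Gy day 3 (SE 0.187, edgeR adjusted p = 4.11e-07) and of -2.06 at 9 Gy day 7 (SE 0.181, edgeR adjusted p = 6.60e-07). These are 4.93-fold and 4.18-fold lower levels, and rank 17 and 19 from the lowest of the 269 log2 fold changes. The pooled 9 Gy samples were 4.67-fold below the pooled 2 Gy samples (log2 fold change -2.22, SE 0.131, edgeR adjusted p = 6.34e-09). In the low-depth 9 Gy day 3 group the raw counts behind these values were 93, 183 and 166. Without the 2 samples whose day labels conflict, the 9 Gy day 3 value was -2.46 (edgeR adjusted p = 0.000157), from 1 remaining sample that is assumed to vary like the other groups.

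**Figure D1:**
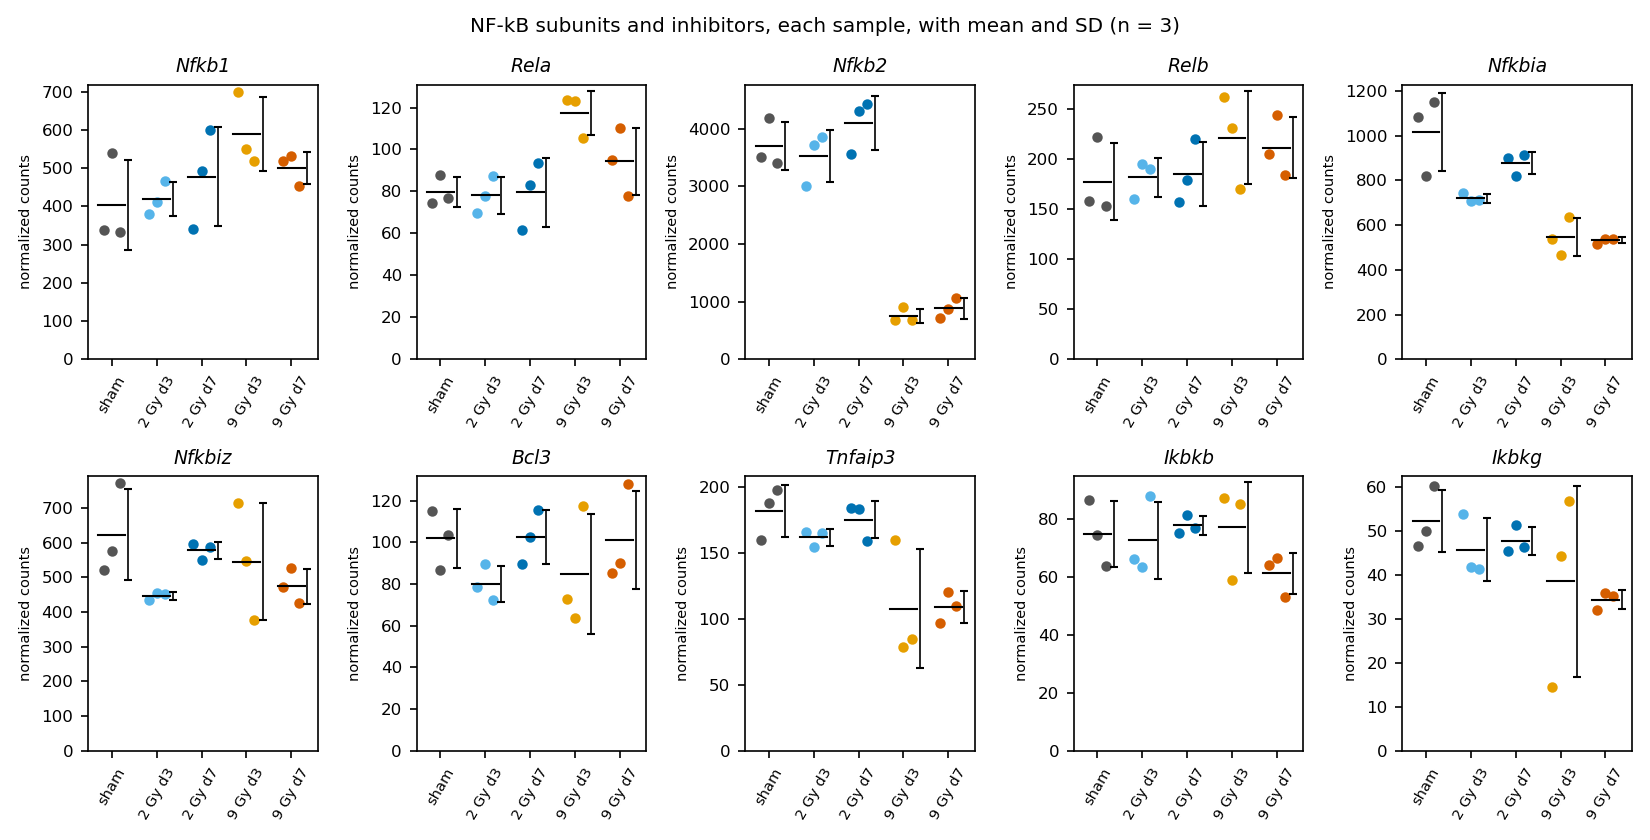
Normalized counts (y axis, linear from 0, housekeeping scaling) of the 10 members in each of the 15 samples, by EV group on the x axis (d3 and d7, day 3 and day 7 after WBIR). Points are samples, lines are means and bars are SD of 3 samples. Nfkb2 lies between 673 and 1066 in the 6 samples at 9 Gy and between 3001 and 4432 in the 9 others.

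Relb, whose product pairs with processed Nfkb2, did not follow it. Its values were 158, 222 and 153 with sham EVs, 262, 231 and 170 at 9 Gy day 3, and 205, 244 and 184 at 9 Gy day 7. The groups overlapped, and the log2 fold changes of 0.30 (SE 0.217, edgeR adjusted p = 0.256) and 0.25 (SE 0.197, edgeR adjusted p = 0.284) did not pass the threshold of 0.05. In the 2 Gy groups Relb ranged from 157 to 220.

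The canonical subunit genes lay above sham EVs in the means of both 9 Gy groups, and with the 14 housekeeping genes only Rela at day 3 passed the edgeR test. Rela, the main transactivating subunit, measured 74.3, 87.8 and 76.8 with sham EVs and 124, 123 and 105 at 9 Gy day 3. Those groups did not overlap, and the log2 fold change was 0.55 (SE 0.208, edgeR adjusted p = 0.0397), on raw counts of only 17, 25 and 26 at 9 Gy day 3. The call was lost without replicate 1 or replicate 2 of 9 Gy day 3, or without sham replicate 1 or 3 (edgeR adjusted p up to 0.115), with DESeq2 (adjusted p = 0.0569), with no filter on low counts (0.0942) and in a fit restricted to 9 Gy day 3 and sham samples (0.0794). The 1 sample left without those of conflicting day label gave 0.40, not called. At 9 Gy day 7 Rela measured 94.8, 110 and 78.1, overlapping sham EVs (log2 fold change 0.24, SE 0.178, edgeR adjusted p = 0.251). Pooled over days, Rela was 1.33-fold higher with 9 Gy than with 2 Gy EVs (log2 fold change 0.41, SE 0.137, edgeR adjusted p = 0.0166), with overlap between the groups. This call was lost with the samples of conflicting day label placed at day 7 or left out. Nfkb1, the gene of RelA's usual partner, measured 339, 540 and 332 with sham EVs, 699, 551 and 519 at 9 Gy day 3, and 519, 532 and 454 at 9 Gy day 7. Sham replicate 2 alone overlapped the 9 Gy values. The log2 fold changes were 0.54 (SE 0.230, edgeR adjusted p = 0.0639) and 0.31 (SE 0.221, edgeR adjusted p = 0.236). Without sham replicate 2 they were 0.80 (edgeR adjusted p = 0.00875) and 0.58 (edgeR adjusted p = 0.0309). Nfkb1 at day 3 was also called by DESeq2 (adjusted p = 0.0415). Scaling to the 10 housekeeping genes of at least 100 mean counts called Nfkb1 at day 3 (0.72, edgeR adjusted p = 0.0203) and Rela at day 7 (0.45, edgeR adjusted p = 0.0447), and against 2 Gy EVs it called Nfkb1 (0.48, edgeR adjusted p = 0.0171) and Relb (0.42, edgeR adjusted p = 0.0203).

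Among the inhibitors, Nfkbia and Tnfaip3 were lower with EVs taken after 9 Gy under housekeeping scaling, and Nfkbiz and Bcl3 did not pass the edgeR test over all samples. Nfkbia encodes IκBα, the inhibitor that is destroyed on activation and made anew by NF-κB. It measured 1085, 820 and 1149 with sham EVs, 539, 467 and 637 at 9 Gy day 3, and 518, 539 and 540 at 9 Gy day 7. Every sample at 9 Gy lay below every sham EV sample. Before scaling, the raw counts at 9 Gy day 7 were 857 to 934 and overlapped the 868 to 1242 with sham EVs. Nfkbia fell, with a log2 fold change of -0.89 at day 3 (SE 0.149, edgeR adjusted p = 0.000212) and of -0.94 at day 7 (SE 0.143, edgeR adjusted p = 8.65e-05), levels 1.86-fold and 1.91-fold lower. It was also 1.47-fold lower with 9 Gy than with 2 Gy EVs (log2 fold change -0.56, SE 0.103, edgeR adjusted p = 0.000307).

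Tnfaip3 encodes A20, a ubiquitin-editing enzyme that shuts off signaling to the IκB kinases. Its values were 160, 188 and 198 with sham EVs, 160, 78.7 and 85.2 at 9 Gy day 3, and 96.6, 121 and 110 at 9 Gy day 7. The day 7 samples lay below all sham EV samples, whereas replicate 1 of 9 Gy day 3 lay level with the lowest of them. Tnfaip3 fell, with a log2 fold change of -0.81 at day 3 (SE 0.221, edgeR adjusted p = 0.00831) and of -0.74 at day 7 (SE 0.188, edgeR adjusted p = 0.00412). The raw counts at 9 Gy day 3 were 22, 16 and 21, and the day 3 call was lost in a fit restricted to that group and sham EVs (-0.80, edgeR adjusted p = 0.0592). Against 2 Gy EVs the log2 fold change was -0.66 (SE 0.145, edgeR adjusted p = 0.00118), and the groups overlapped.

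Nfkbiz encodes IκBζ, a nuclear IκB protein that helps NF-κB to induce secondary response genes such as Il6. It measured 521, 576 and 772 with sham EVs, 713, 546 and 377 at 9 Gy day 3, and 472, 526 and 425 at 9 Gy day 7. The log2 fold changes were -0.21 (SE 0.203, edgeR adjusted p = 0.395) and -0.39 (SE 0.194, edgeR adjusted p = 0.0936). Without the samples of conflicting day label Nfkbiz was called lower at day 3 (-0.72, edgeR adjusted p = 0.0371, on 1 remaining sample) and at day 7 (-0.39, edgeR adjusted p = 0.0366), and DESeq2 called it at day 7 (adjusted p = 0.0450). The spread between the 9 Gy day 3 replicates was wide for this gene, from 93 to 111 raw counts at different depths. Bcl3, another nuclear IκB protein, which binds homodimers of the processed subunits, ranged from 86.9 to 115 with sham EVs, from 63.9 to 118 at 9 Gy day 3 and from 85.1 to 128 at 9 Gy day 7. Its groups overlapped throughout, with log2 fold changes of -0.23 (SE 0.254) and -0.01 (SE 0.209).

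Of the kinase complex, Ikbkg encodes NEMO, the regulatory subunit, and Ikbkb a catalytic subunit. Ikbkg measured 46.6, 50.1 and 60.1 with sham EVs, 14.6, 44.2 and 56.8 at 9 Gy day 3, and 32.0, 35.8 and 35.3 at 9 Gy day 7. At day 7 all samples lay below sham EVs, and Ikbkg fell, with a log2 fold change of -0.61 (SE 0.212, edgeR adjusted p = 0.0230). The call was lost without replicate 1 of 9 Gy day 7 (adjusted p = 0.0729), without sham replicate 3 (adjusted p = 0.0971), with the brighter housekeeping genes (-0.41, adjusted p = 0.111) and with TMM scaling (-0.12, adjusted p = 0.642). The 9 Gy day 3 values rest on raw counts of 2, 9 and 14, and their change was not detectable at this depth (log2 fold change -0.33, SE 0.286). Setting counts under 20 to 20 turned it to 1.00, called higher (edgeR adjusted p = 0.00100), a value set by the floor since all 3 counts lie under it. Ikbkb ranged from 63.8 to 86.5 with sham EVs and from 53.2 to 66.7 at 9 Gy day 7, which overlapped (log2 fold change -0.29, SE 0.176, edgeR adjusted p = 0.172).

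**Figure D2:**
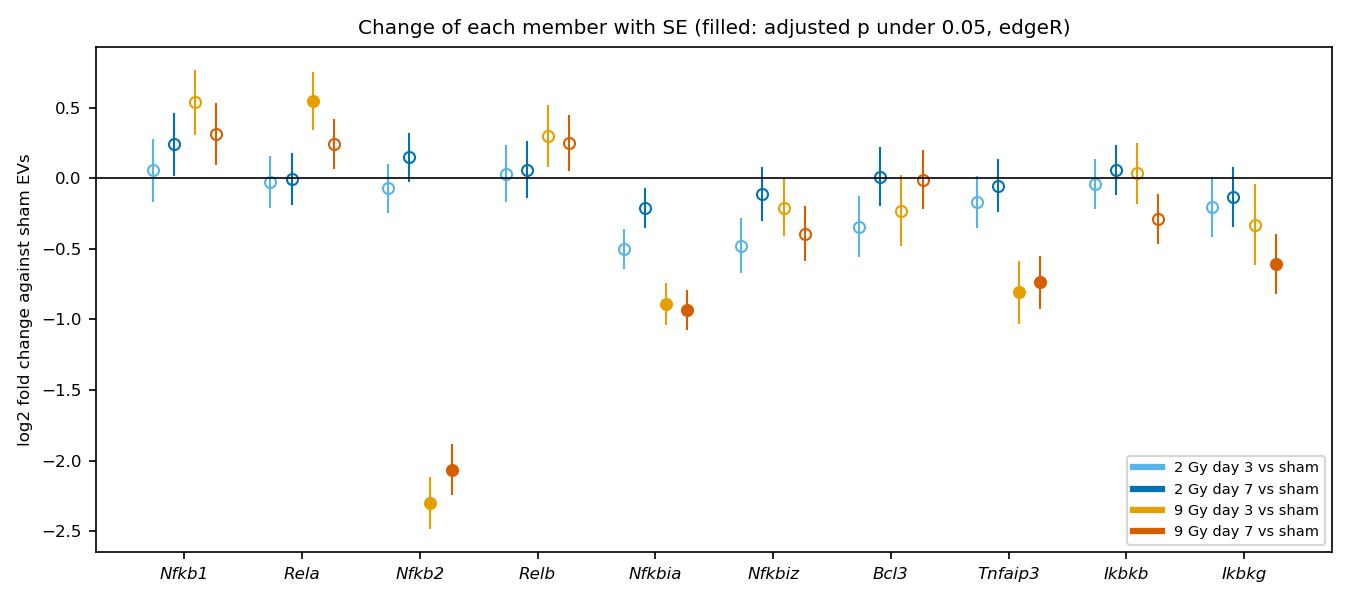
Log2 fold change (y axis) of each member (x axis) for the 4 groups against sham EVs, with SE bars, from the edgeR fit with housekeeping scaling. Filled points have an adjusted p under 0.05. Nfkb2 stands at -2.30 and -2.06 for the 9 Gy groups and at -0.07 and 0.15 for the 2 Gy groups.

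Counted together, 3 of the 10 members were lower at 9 Gy day 3 (Nfkb2, Nfkbia and Tnfaip3), where 41.3% of all 269 genes were lower, and 1 was higher (Rela), where 11.2% of all genes were. A fit restricted to 9 Gy day 3 and sham samples left 2 lower (Nfkb2 and Nfkbia) against 36.1% and 0 higher against 7.81%. At 9 Gy day 7, 4 members were lower (the same 3 and Ikbkg) against 49.1% of all genes, and 0 were higher against 11.9%. With 9 Gy against 2 Gy EVs, 3 were lower against a background of 52.0% and 1 higher against 15.6%. The share of members that fell was thus not above that of the panel. The median log2 fold change of the members was -0.22 at 9 Gy day 3 and -0.34 at 9 Gy day 7, and that of all genes tested was -0.46 and -0.45.

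The direction of several members depended on how the samples were scaled. Under housekeeping scaling the median gene lay well below 0 at both 9 Gy days. TMM scaling, which centers a trimmed mean of the log ratios between samples, gave medians of 0.01 and 0.03 for all genes at 9 Gy day 3 and day 7, and scaling to total counts gave 0.56 and 0.65. Nfkb2 fell under all of them. Its log2 fold change at 9 Gy day 3 was -1.82 with TMM and -1.26 with total counts, and at day 7 it was -1.59 and -0.97, with edgeR adjusted p of at most 0.000136. Nfkbia fell under TMM scaling too, at -0.42 for day 3 (edgeR adjusted p = 0.0335) and -0.45 for day 7 (edgeR adjusted p = 0.0168), but was not called under total counts, where its values were 0.11 and 0.17. Tnfaip3 lost its call under TMM (-0.34 and -0.26) and turned sign under total counts (0.21 and 0.37, not called). Against 2 Gy EVs both lost their calls under TMM, at -0.10 for Nfkbia (edgeR adjusted p = 0.446) and -0.21 for Tnfaip3 (edgeR adjusted p = 0.205), and under total counts both were called higher, at 0.58 (edgeR adjusted p = 0.000406) and 0.47 (edgeR adjusted p = 0.0151). Nfkb1, Rela and Relb rose at both days under TMM, with log2 fold changes of 1.01, 1.02 and 0.77 at day 3 and 0.80, 0.73 and 0.74 at day 7, and under total counts with 1.58, 1.57 and 1.34 at day 3 and 1.44, 1.37 and 1.38 at day 7, which exceed the size of the Nfkb2 change there. Members called lower with TMM were 2 at day 3 and 2 at day 7 (Nfkb2 and Nfkbia), against 22.3% and 28.3% of all genes. Those called higher were 3 and 3 (Nfkb1, Rela and Relb), against 21.9% and 27.9%. Total counts left 1 member lower at each day (Nfkb2), against 12.3% and 11.5%, and put 6 higher at each day, against 45.0% and 53.2%. For 9 Gy against 2 Gy EVs, TMM called 1 member lower against 29.7% of all genes and 5 higher against 33.1%, and total counts called 1 lower (Nfkb2) against 13.4% and 9 higher against 62.5%.

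**Figure D3:**
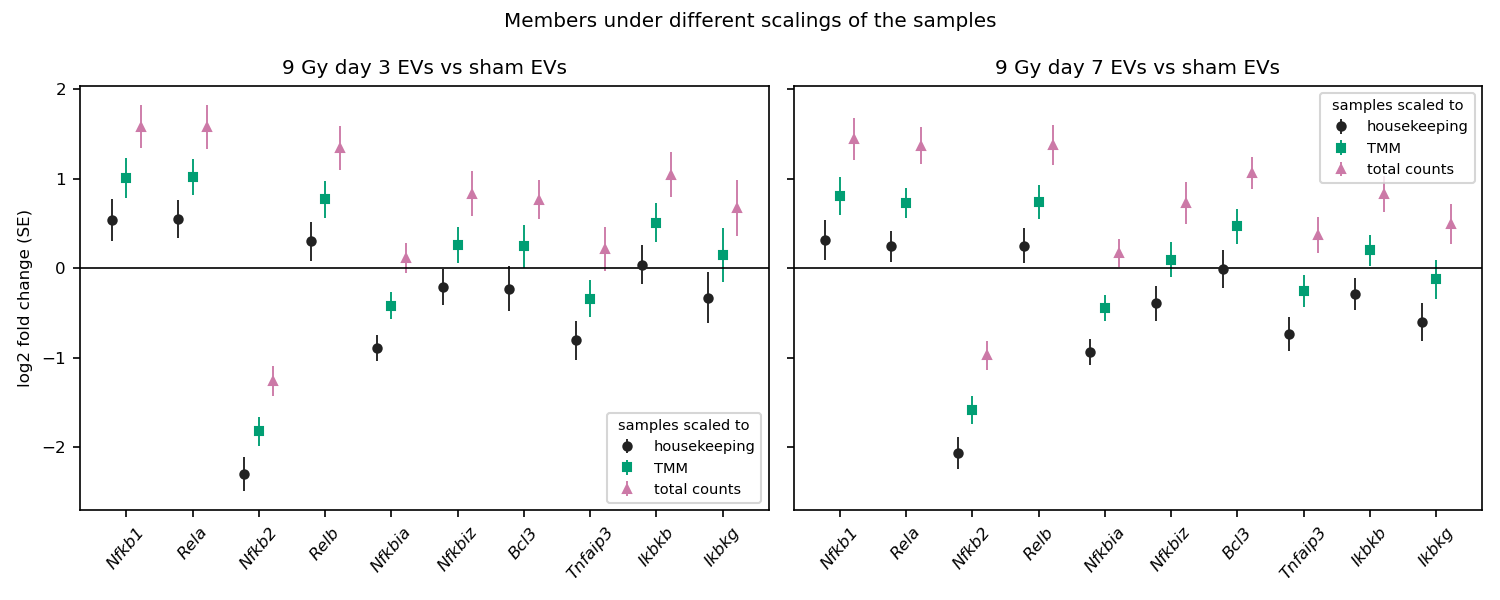
Log2 fold change with SE (y axis) of each member (x axis) at 9 Gy day 3 and day 7 against sham EVs, with samples scaled to housekeeping genes (circles), by TMM (squares) or to total counts (triangles). Nfkb2 is below 0 under all 3 scalings, at -2.30, -1.82 and -1.26 at day 3, and Nfkb1, Rela and Relb are above 0 under all 3, though with the 14 housekeeping genes only Rela at day 3 was called.

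Ratios of 2 members within a sample do not depend on any scaling, so they set the members against each other directly. The number of Nfkb2 counts per Nfkb1 count was 10.3, 7.75 and 10.3 with sham EVs, 7.88, 9.05 and 8.24 at 2 Gy day 3, and 10.4, 8.75 and 7.39 at 2 Gy day 7. It was 0.969, 1.63 and 1.30 at 9 Gy day 3, and 1.36, 1.65 and 2.35 at 9 Gy day 7. Both probes bind with their own efficiency, so only the change of the ratio between groups is read. The 6 samples at 9 Gy lay below all others, and their mean log2 ratio differed from that of the 6 samples at 2 Gy by -2.53, a 5.76-fold difference (2-sided exact permutation test, p = 0.00216, the smallest that 6 against 6 samples can give, 0.00505 after adjustment over the 7 ratios). Against the 3 sham EV samples the difference was -2.65, a 6.29-fold difference (exact permutation test, p = 0.0238, the smallest that 6 against 3 can give in this 2-sided test, 0.0417 after adjustment). These tests take day 3 and day 7 samples of 1 replicate number as separate. With such samples averaged over both days, an alternative chosen after seeing the data, each comparison is 3 against 3, whose smallest exact permutation p of 0.1 cannot pass the threshold for any ratio. Without the samples of conflicting day label the difference was -2.40 against 2 Gy and -2.53 against sham EVs.

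Nfkbia and Tnfaip3 also fell relative to Rela. Under housekeeping scaling the log2 fold change of Rela against 2 Gy EVs was 0.41, rank 47 from the highest of 269. The median of all genes tested was -0.45 there. Most genes of the panel thus fell relative to Rela as well, and no panel background of these ratios was computed. Nfkbia counts per Rela count was at least 8.17 in all 9 samples of the sham EV and 2 Gy groups, and ranged from 3.80 to 6.92 over both 9 Gy groups. The mean log2 ratio differed by -0.98 from 2 Gy (exact permutation p = 0.00216, adjusted 0.00505) and by -1.30 from sham EVs (exact permutation p = 0.0238, adjusted 0.0417). Tnfaip3 per Rela ranged from 2.14 to 2.58 with sham EVs, from 1.70 to 2.98 at 2 Gy and from 0.640 to 1.41 at 9 Gy, with log2 differences of -1.10 against 2 Gy and -1.18 against sham EVs at the same p-values. In both ratios no sample at 9 Gy overlapped a sample of the other groups, although Rela at 9 Gy day 3 rests on 17 to 26 raw counts. The other ratios moved less. Nfkbiz per Nfkb1 differed on the log2 scale by -0.76 from sham EVs (exact permutation p = 0.0238, adjusted 0.0417) and by -0.32 from 2 Gy (p = 0.0238, adjusted 0.0417, exact permutation test), with overlap against 2 Gy. The latter call was lost when any of 9 of the 12 samples was left out, with adjusted p up to 0.0833. Relb per Rela differed by -0.19 from 2 Gy (adjusted 0.0788) and by -0.11 from sham EVs (adjusted 0.476). Bcl3 per Nfkb1 (-0.30 and -0.63) and Ikbkg per Ikbkb (-0.33 and -0.49) did not pass the exact permutation test in either comparison.

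**Figure D4:**
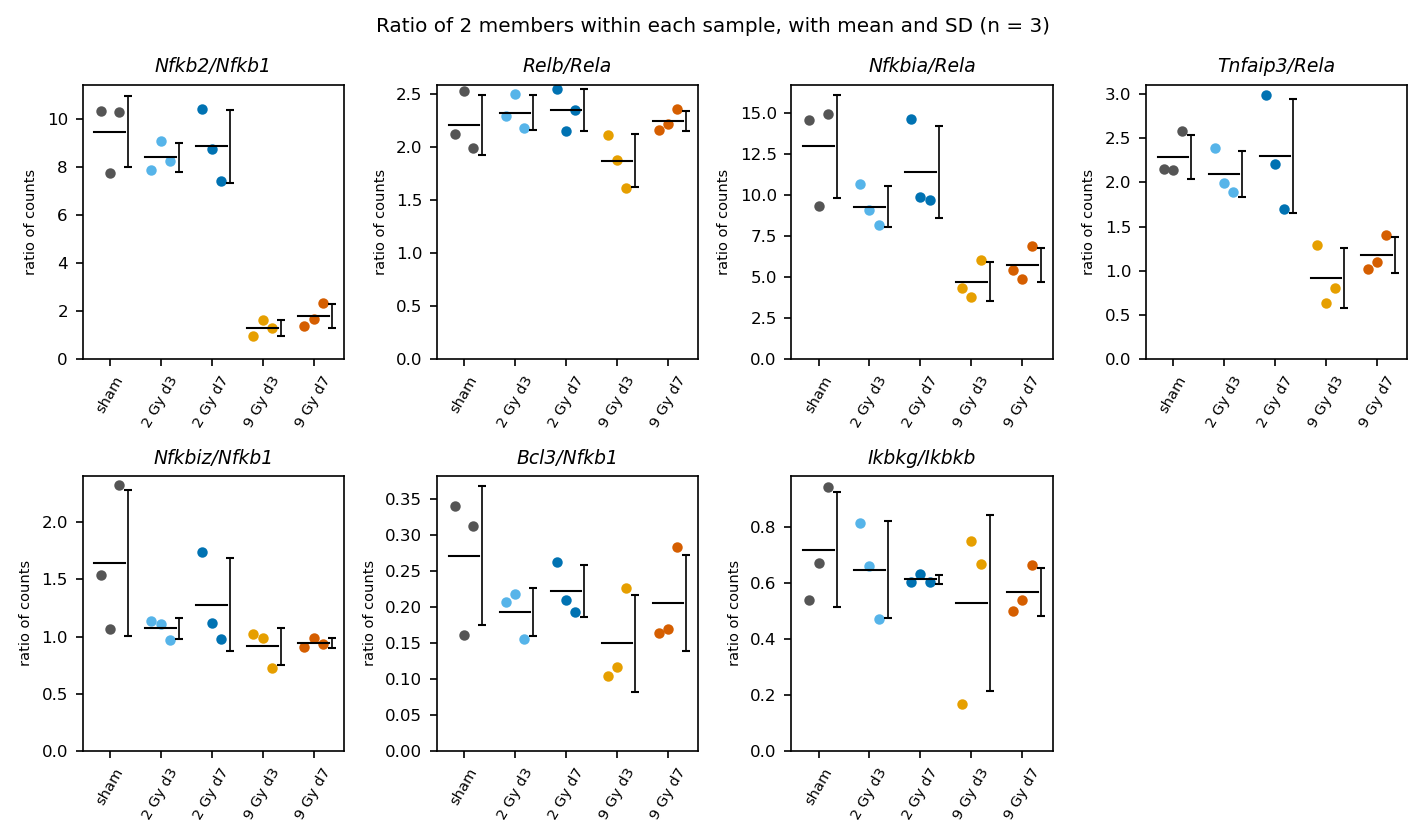
Ratio of the counts of 2 members within each sample (y axis, linear from 0) by EV group (x axis), with means and SD of 3 samples. Nfkb2 per Nfkb1 lies between 0.969 and 2.35 in the 6 samples at 9 Gy and between 7.39 and 10.4 in the 9 others, and Nfkbia per Rela and Tnfaip3 per Rela show no overlap either.

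With EVs taken after 2 Gy, 0 of the 10 members passed the threshold at either day, where 0.0% of all genes did, and DESeq2 called 0 members as well. At 2 Gy day 3, 7 of the 269 genes had an unadjusted p under 0.05, among them 2 members. Nfkbia measured 742, 706 and 712, below all sham EV samples (log2 fold change -0.50, SE 0.142, edgeR adjusted p = 0.490, DESeq2 adjusted p = 0.0545). Nfkbiz measured 434, 455 and 453, also below all of them (log2 fold change -0.48, SE 0.195, edgeR adjusted p = 0.998). Without sham replicate 3 the log2 fold change of Nfkbiz was -0.29. At 2 Gy day 7 Nfkbia measured 902, 820 and 912 and Nfkbiz 596, 549 and 586, and both overlapped sham EVs. No member had an unadjusted p under 0.05 there, where 1 gene of the panel did.

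Between day 7 and day 3, 0 members and 0.0% of all genes passed the threshold at either dose in the fit of all groups, with 6 genes at 9 Gy and 4 at 2 Gy at an unadjusted p under 0.05, no member among them. With counts under 20 set to 20, which raises the scaled low counts of 9 Gy day 3, Ikbkb and Ikbkg were called lower at 9 Gy day 7 than at day 3, as were 32.3% of all genes. Same-numbered samples of 1 dose deviated together between the days, but some differently numbered samples did so as much (2 Gy day 3 replicate 3 correlated at 0.611 with day 7 replicate 2 and at 0.534 with its own number). With the replicate number as a block and only the 2 Gy groups in the fit, an alternative chosen after seeing the data, 3 members were higher at day 7, against 8.92% of all genes. These were Nfkb2 (log2 fold change 0.22, SE 0.0479, edgeR adjusted p = 0.0211), Nfkbia (0.28, SE 0.0670, edgeR adjusted p = 0.0307) and Nfkbiz (0.37, SE 0.0745, edgeR adjusted p = 0.0158). In that paired fit 0 members were lower, against 1.12% of all genes. The same edgeR fit of the 9 Gy groups called 0 members and 0.0% of all genes, with 25 genes and no member at an unadjusted p under 0.05. Whether the change from day 3 to day 7 differed between doses was tested as an interaction, and 0 genes passed. Nfkb2 gave an interaction of 0.02 on the log2 scale (SE 0.250).

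Other genes of the pathway were read from lists of textbook members. The lists were chosen with earlier results of these data known, so their contrast with all genes is only a description. Of 45 listed NF-κB target genes 40 were on the panel and 34 were tested. Under housekeeping scaling 19 were lower and 4 higher at 9 Gy day 3, where 41.3% and 11.2% of all genes were, and 22 were lower and 4 higher at 9 Gy day 7, against 49.1% and 11.9%. The median log2 fold changes were -1.30 and -1.17, against -0.46 and -0.45 for all genes. The targets named by their size were the cytokine genes Il6, Il1a, Il23a and Il1b. Il6, an acute phase cytokine gene, had log2 fold changes of -6.10 at day 3 and -6.02 at day 7 (SE 0.386 and 0.346), on 4 to 13 and 61 to 101 raw counts. Those of Il1a were -4.47 and -4.64 (SE 0.709 and 0.644), of Il23a -4.32 and -4.61 (SE 0.522 and 0.379) and of Il1b -4.53 and -4.52 (SE 0.858 and 0.827). Il23a at day 3 rests on 1 to 4 raw counts. All 4 genes had edgeR adjusted p of at most 0.000643. With TMM scaling 15 targets were lower and 5 higher at day 3 (22.3% and 21.9% of all genes), and 17 and 5 at day 7 (28.3% and 27.9%). With total counts 12 were lower and 10 higher at day 3 (12.3% and 45.0% of all genes), and 14 and 13 at day 7 (11.5% and 53.2%). The 4 named cytokine genes were called lower under both scalings.

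A second list held 29 upstream signaling genes, including the receptor, its co-receptors and kinases of the complex. Of these 29, 17 were on the panel and 16 were tested. Under housekeeping scaling 4 were lower and 1 higher at 9 Gy day 3, and 8 lower and 0 higher at 9 Gy day 7, against the shares of all genes given above, with medians of -0.14 and -0.30. These counts turned with the scaling, to 1 lower and 4 higher at day 3 and 1 lower and 5 higher at day 7 under TMM, and to 1 and 11 and 1 and 8 under total counts. Tollip, an adaptor known to restrain Toll-like receptor signaling, had log2 fold changes of -2.11 at day 3 and -1.98 at day 7 (SE 0.169 and 0.156, edgeR adjusted p = 3.97e-07 and 2.86e-07), and was the 1 gene of this list called lower under TMM (-1.64 at day 3) and total counts (-1.10 at day 3) at both days too. Cd14 and Ly96, co-receptors for LPS, gave -1.20 and -1.11 at day 3 with overlap (edgeR adjusted p = 0.0110 and 0.0327), and -1.34 and -0.99 at day 7 without it (edgeR adjusted p = 0.00455 and 0.0127). Ly96 at day 3 rests on 1 to 17 raw counts. Irak2, a kinase of the receptor complex, gave -0.42 and -0.38 (edgeR adjusted p = 0.0136 and 0.0157). Cd14, Ly96 and Irak2 lost these calls under TMM, where Irak2 stood at 0.05 and 0.11, and under total counts Irak2 was called higher (0.61 and 0.73, edgeR adjusted p = 0.00398 and 0.000575). In the 2 Gy groups 0 genes of either list passed the threshold.

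**Figure D5:**
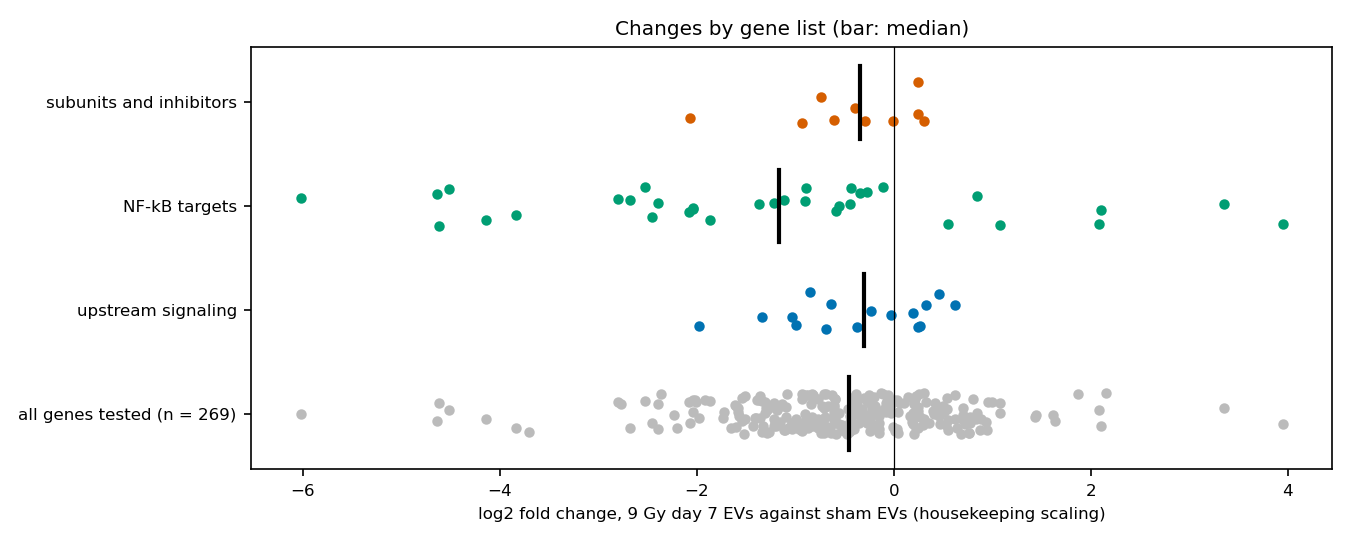
Log2 fold change at 9 Gy day 7 against sham EVs (x axis, housekeeping scaling) of each gene tested, for the 10 members, the NF-κB targets, the upstream signaling genes and all 269 genes (y axis, points spread vertically for sight). Bars are medians, at -0.34, -1.17, -0.30 and -0.45 from top to bottom.

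The panel genes with the pattern most like each member were found by the mean absolute difference in log2 fold change over the 4 comparisons with sham EVs, as a description. Those comparisons share the sham EV samples. Nfkb2 was closest to Ccl5, a chemokine gene, with a mean difference of 0.04 (Ccl5 changed by -2.29 and -2.07 at 9 Gy and by -0.03 and 0.03 at 2 Gy), then to Ebi3 (0.10) and Cd74 (0.15). Nfkbia was closest to Clu (0.10), Il10rb (0.10) and Xbp1 (0.11). Tnfaip3 was closest to Tap1 (0.05), Ncf4 (0.05) and Ifnar1 (0.06). Rela was closest to Il1rap (0.06), Bid (0.07) and Mif (0.08), and Nfkb1 shared Mif (0.07) and Bid (0.09) with it. Relb was closest to Bax (0.04), Nfkbiz to Casp8 (0.11), Bcl3 to Cdkn1a (0.08), Ikbkb to Il4ra (0.03) and Ikbkg to Stat3 (0.04).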

How the data were processed

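The authors deposited raw nanoString nCounter counts of 561 genes in 15 samples as whole numbers of at least 1, without control probes. Per the methods they normalized in nSolver, with settings not given in the sources used here, and those values were not used here. The members and gene lists were chosen with earlier results of these data known. Samples were grouped by title. Scale factors were geometric means of 14 housekeeping genes. The 269 genes averaging at least 20 counts entered 1 edgeR quasi-likelihood fit of all 5 groups (edgeR 4.0.16, R 4.3.3, prior count 0.125), with Benjamini-Hochberg adjustment over all genes tested and a threshold of 0.05. The SE is the absolute log2 fold change over the square root of F. The edgeR fit was tested on simulated counts in which the housekeeping genes did not change. That test therefore cannot check the choice of housekeeping scaling. Within-sample ratios were compared by 2-sided exact permutation tests over samples (scipy 1.17.1), adjusted over 7 ratios. Their p is the smaller tail doubled, and the smallest p-values named hold for that form. Named genes were all members, for each list the 4 largest changes at 9 Gy day 7 called at both 9 Gy days and any called at 2 Gy, and the 3 most alike genes of each member, of which some are printed. Same-numbered samples were checked for shared deviations from group means. Correlations were all over 0.1 only between both 2 Gy groups (0.365 to 0.779) and both 9 Gy groups (0.330 to 0.717), from the data alone, with some differently numbered pairs as high or higher, and no source says what a number shares. The alternatives were other scalings (TMM, median count ratios, total counts, housekeeping genes of at least 100 mean counts), filters, a floor of 20 counts, only the groups compared, a replicate block, both treatments of the conflicting day labels, DESeq2 1.42.0 and leaving out each sample. Depth limits the 9 Gy day 3 group, where 190 to 246 genes per sample stood at the lowest count of 1. Motif matches were read from RefSeq promoters.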

Additional observations from a re-analysis of the deposited data

How the results depend on the processing

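The fall of Nfkb2 at 9 Gy kept its direction and its side of the threshold under every alternative run. Scaled to total counts, the number of members called moved from 4 to 7 at 9 Gy day 3 and from 4 to 7 at 9 Gy day 7. For 9 Gy against 2 Gy it moved from 4 to 10. Only Nfkb2 was lower each time, where 12.3%, 11.5% and 13.4% of all genes were lower and 45.0%, 53.2% and 62.5% higher. With only the groups compared in the fit, 2 members were called at 9 Gy day 3, both lower, as were 36.1% of all genes. Setting counts under 20 to 20 moved the number between the 9 Gy days from 0 to 2. Both were lower at day 7, as were 32.3% of all genes. A floor divided by a small scale factor raises low members at day 3. Between the 2 Gy days a replicate block with only those groups moved it from 0 to 3, all higher at day 7, as were 8.92% of all genes. The replicate block in the fit of all groups gave 4, 4 and 4 members in the 3 comparisons with calls, where 43.1%, 50.6% and 52.8% of all genes were lower and 11.2%, 13.4% and 16.0% higher, and changed no other call. Leaving out 1 sample gave 3 to 5, 3 to 5 and 4 to 5 members in these comparisons, where 33.5% to 40.9%, 45.0% to 49.8% and 47.2% to 52.0% of all genes were lower and 7.81% to 11.5%, 8.92% to 13.8% and 14.1% to 16.0% higher, and 0 members elsewhere.

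In the 3 comparisons at 9 Gy, Nfkb2, Nfkb1 and Rela kept their sign. At 9 Gy day 3, scaling to total counts gave log2 fold changes of 0.11 (Nfkbia), 0.83 (Nfkbiz), 0.77 (Bcl3), 0.21 (Tnfaip3) and 0.67 (Ikbkg); TMM gave 0.26 (Nfkbiz), 0.24 (Bcl3) and 0.15 (Ikbkg), and median count ratios gave 0.28, 0.24 and 0.15. A floor of 20 counts gave 0.22 (Bcl3) and 1.00 (Ikbkg, called higher). The samples of conflicting day label placed at day 7 gave -0.059 (Relb), 0.21 (Bcl3) and 0.12 (Ikbkg), and the same values when left out, with 1 sample remaining at day 3 in both. At 9 Gy day 7, total counts gave 0.17 (Nfkbia), 0.73 (Nfkbiz), 1.07 (Bcl3), 0.37 (Tnfaip3), 0.83 (Ikbkb) and 0.49 (Ikbkg), TMM gave 0.10 (Nfkbiz), 0.47 (Bcl3) and 0.20 (Ikbkb), and median count ratios gave 0.10, 0.47 and 0.20. The 10 housekeeping genes of at least 100 mean counts gave 0.18 (Bcl3). For 9 Gy against 2 Gy, total counts gave 0.58 (Nfkbia), 1.15 (Nfkbiz), 0.47 (Tnfaip3), 1.00 (Ikbkb) and 0.82 (Ikbkg), TMM gave 0.46 (Nfkbiz), 0.33 (Ikbkb) and 0.16 (Ikbkg), and median count ratios gave 0.44, 0.32 and 0.15. The brighter housekeeping genes gave 0.19 (Nfkbiz) and 0.059 (Ikbkb), and the floor 0.10 (Ikbkb) and 0.36 (Ikbkg, called higher). Beyond what these settings do by construction, the cause was not tested. Leaving out 1 sample turned the sign of uncalled members, with ranges of -0.44 to 0.0074 (Nfkbiz) and -0.069 to 0.20 (Ikbkb) at 9 Gy day 3, -0.22 to 0.10 (Bcl3) at 9 Gy day 7, and -0.12 to 0.10 (Nfkbiz) and -0.13 to 0.14 (Bcl3) against 2 Gy. Ikbkg against 2 Gy was called without 9 Gy day 3 replicate 3 (-0.49, edgeR adjusted p = 0.0488).

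Of the ratios, Ikbkg per Ikbkb turned to 0.26 against 2 Gy and 0.092 against sham EVs with the floor, and Bcl3 per Nfkb1 to 0.0036 against 2 Gy without the samples of conflicting day label, where Nfkbiz per Nfkb1 was -0.38 and no longer called. Leaving out 1 sample gave -0.37 to -0.20 for Nfkbiz per Nfkb1 and -0.23 to -0.12 for Relb per Rela against 2 Gy, the latter called only without 9 Gy day 7 replicate 3. Against sham EVs the ranges were -2.79 to -2.53 (Nfkb2 per Nfkb1), -1.52 to -1.18 (Nfkbia per Rela), -1.27 to -1.05 (Tnfaip3 per Rela) and -1.03 to -0.47 (Nfkbiz per Nfkb1), at an adjusted exact permutation p of 0.0625 where a sample at 9 Gy was left out, since fewer samples allow fewer arrangements. Without 1 sham sample, or without both samples of conflicting day label, no value against sham EVs can pass the threshold in this test, which doubles the smaller tail.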
